A study of Mus musculus with 15 samples.

Results

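CD34-positive a6-high tumour cells of SIRT6 knockout (KO) animals were compared with the same sorted cells of wild-type (WT) animals across all genes. The libraries were taken by their labels, 2 KO and 3 WT, which is 5 of the 15 libraries of the series. All were C57BL/6 mice with skin tumours and had received the mutagen DMBA and the phorbol ester TPA, which promotes tumour growth, for more than 24 weeks, so WT cells are tumour cells too. The KO genotype is K14-cre with SIRT6 flox/flox, in which the K14 promoter drives the Cre recombinase in keratinocytes, and other cell types of a KO tumour keep the gene. Cells were sorted on CD34, a marker of hair follicle bulge and tumour-propagating cells, and on integrin alpha 6 (a6), a laminin receptor of basal keratinocytes. The remaining libraries came from a6-high and a6-low cells that lacked CD34, again 2 KO and 3 WT of each. Whether replicates were separate animals is not in the labels. Unless another fit is named, each p-value and standard error (SE) reflects only the spread among all 15 libraries, fitted jointly. That spread may be technical in part, and same-numbered libraries of different populations entered as independent.

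SIRT6 is a sirtuin, an enzyme that uses NAD to remove acetyl groups from histone H3 at promoters and at sites of DNA damage. It is known as a repressor of glycolytic genes, which it keeps low by opposing hypoxia-inducible factor, as a regulator of ribosomal protein and lipid genes, and as a helper of DNA repair. In skin carcinomas CD34 and integrin alpha 6 are used to enrich the cells that can start new tumours. The gene lists described here were drawn from these known roles, from keratinocyte biology and from the other cell types a skin tumour holds. They were chosen with earlier results of these data known, so their shares are not independent of the data.

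Between 13.28 and 21.7 M reads (M, 1e6) were counted in genes in the 5 libraries, and between 16488 and 19157 genes had a count. WT replicate 1 stood nearer to the KO libraries than to the other WT libraries. Over 9782 well-expressed genes (a mean of at least 2 on the log2 scale of CPM, the counts per 1e6 counts of a library), the log2 differences between WT replicate 1 and KO replicates 1 and 2 had SDs of 0.567 and 0.524. Against WT replicates 2 and 3 the SDs were 0.663 and 0.642, while WT replicates 2 and 3 differed from each other with an SD of 0.422. Depth lay in the same order: 21.56 M counts in WT replicate 1 against 21.7 and 20.62 M in KO and 14.73 and 13.28 M in WT replicates 2 and 3. So did the share of reads outside genes, at 4.05% in WT replicate 1, 4.11% and 4.63% in KO, and 3.07% and 2.77% in the other WT libraries. KO replicate 2 was the only library of the 5 with more than a trace of Y-linked reads, with Ddx3y at 55.6 CPM and 0 in the other 4, and its Xist level was 0.32 CPM against 35.1 in KO replicate 1 and 22.2 to 39.3 in WT. Where a log2 difference named in the text moved by over 1.5 times against WT replicate 1 alone, most such values are given in the same paragraph.

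The targeted gene Sirt6 (ENSMUSG00000034748) was measured at 6.68 and 5.07 CPM in the KO libraries and at 8.14, 9.60 and 7.05 CPM in the WT libraries. The groups did not overlap and KO was lower, with a log2 difference of -0.49 ± 0.33 (SE), but the test did not separate them (edgeR quasi-likelihood test, adjusted p = 0.685). Reads were summed over all exons, and the exons flanked by the flox alleles are not named in the labels, so reads left over a deleted gene cannot be told apart from reads of an intact one and the level does not check the genotype label. Of the other sirtuin and histone deacetylase genes, Sirt1 stood at 13.8 and 22.9 CPM in KO against 19.9, 7.49 and 4.67 in WT, and its groups overlapped. The list of 17 tested deacetylase genes, Sirt6 included, had a median of -0.15 on the log2 scale. In it 0 members passed at an unadjusted p under 0.05 in either direction. Without overlap 4 were lower (23.5% against 13.2% of all genes), Sirt6 and Sirt2 among them, and 0 were higher.

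Of the sort markers, Cd34 was at 178.3 and 173.5 CPM in KO and at 196.7, 162.6 and 214 CPM in WT (log2 difference -0.12 ± 0.63 SE). The joint fit takes this SE also from the CD34-negative libraries, where Cd34 lay at 4.51 to 40.3 CPM. Itga6, the gene of integrin alpha 6, was at 321 and 575.6 CPM in KO and at 558.4, 386.9 and 263.4 CPM in WT (log2 difference 0.15 ± 0.68 SE). Both genes overlapped between genotypes, and the sign of the Itga6 difference turned when KO replicate 2 was left out (-0.32) or when KO was set against WT replicate 1 alone (-0.31). The defining basal keratin gene Krt14 was the most abundant of the keratinocyte markers, at 28330 and 41900 CPM in KO and 60180, 53900 and 43810 CPM in WT. Its KO libraries lay below all WT libraries, with a log2 difference of -0.58 ± 0.26 (edgeR, adjusted p = 0.652).

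Across the 14652 genes tested, 1 gene passed the adjusted threshold of 0.05, which is 0.00683% of them. The differences of single genes were mostly small against their error: the median was 0.013 on the log2 scale, the 5th and 95th percentiles were -1.04 and 1.24, and the median SE was 0.41. At an unadjusted p under 0.05 there were 1112 genes (7.59%), of which 645 (4.4%) were higher and 467 (3.19%) lower in KO. Without any overlap between the 2 KO and 3 WT libraries there were 2179 higher genes (14.9%) and 1939 lower genes (13.2%). DESeq2, run as an alternative test, called 27 genes, 17 higher (0.116%) and 10 lower (0.0683%), and 25 of these had groups that did not overlap. On simulated counts with the same design the edgeR test recovered 41% of 4-fold and 2% of 2-fold changes, so a gene that does not pass may still differ by such amounts.

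**Figure D1:**
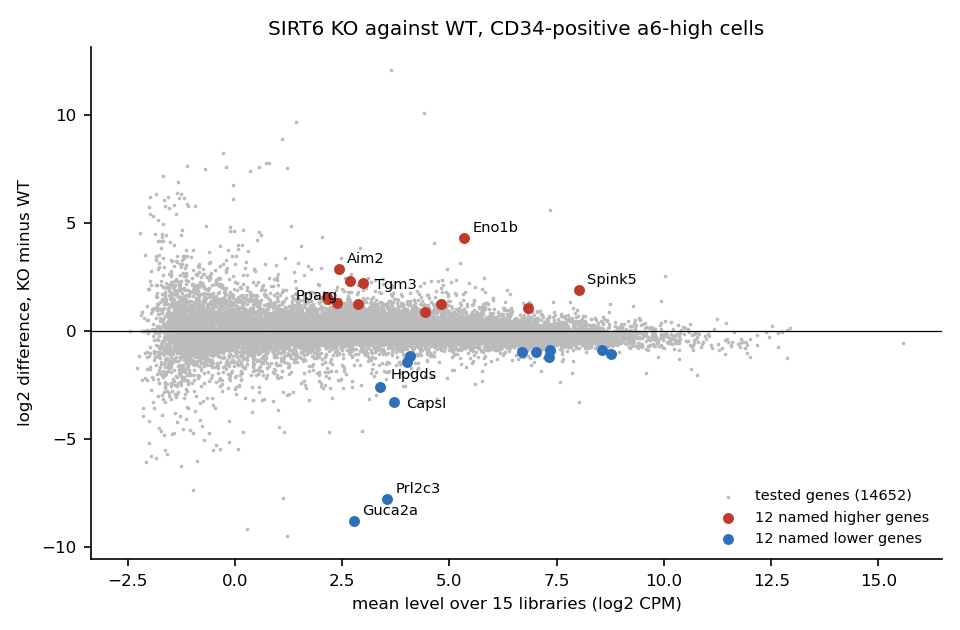
Log2 difference between KO and WT in CD34-positive a6-high cells (vertical axis) against the mean level over the 15 libraries (horizontal axis, log2 CPM), 1 grey point per tested gene, with the 12 named higher genes in red and the 12 named lower genes in blue. Eno1b stands at 4.27, apart from other genes of its level, and the fitted values of Prl2c3 and Guca2a rest on 7 and 0 counts in KO.

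The gene that rose was Eno1b (ENSMUSG00000059040), an intronless copy of the gene of enolase, the glycolytic enzyme that makes phosphoenolpyruvate. Its level was 97.5 and 118.5 CPM in the KO libraries against 4.98, 4.51 and 7.30 CPM in the WT libraries. Every KO library thus lay far above every WT library, and the log2 difference was 4.27 ± 0.29 (SE), or 19.3-fold (edgeR, adjusted p = 2.93e-05). The call held in each of the 15 alternatives that were run, with log2 values of 4.13 to 4.62, also against WT replicate 1 alone (4.44, adjusted p = 0.0145). In the a6-high and a6-low cells without CD34 the log2 difference was 3.96 and 4.23, and the tests of the difference in KO effect did not pass (edgeR, adjusted p = 1.0 for each). Another intronless enolase copy, the processed pseudogene Gm4735, named here after its values were seen, was also higher: 48.9 and 55.1 CPM in KO against 12.8, 14.55 and 15.9 CPM in WT, 3.61-fold (edgeR, adjusted p = 0.17; DESeq2, adjusted p = 5e-05).

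The parent gene Eno1 lay in the opposite direction. It was measured at 1690 and 1988 CPM in KO and at 2620, 2834 and 3135 CPM in WT. The groups did not overlap, and the log2 difference was -0.64 ± 0.26 (edgeR, adjusted p = 0.652). The copies and the parent are nearly the same in sequence: the transcript of Eno1b matches that of Eno1 at 1643 of 1652 aligned bases (99.5%), and Gm4735 matches Eno1 at 1297 of 1302 (99.6%). Reads that align to several places were not counted, so the counts of all 3 genes rest on reads that cover the differing bases or the unshared ends, and how reads were split between them was not tested. Summed over Eno1, Eno1b and Gm4735, the level was 1837 and 2162 CPM in KO and 2638, 2853 and 3158 CPM in WT, 0.694 times as high in KO, so the sum was lower in KO without overlap.

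The genes that came next by p, among well-expressed named genes whose libraries did not overlap, did not pass the adjusted threshold in edgeR. They were drawn from 9286 genes, of which 1483 were higher and 1380 lower without overlap, and 13 of the 24 named, Eno1b included, passed it in DESeq2. Ercc5 encodes the endonuclease XPG of nucleotide excision repair. Its level was 49.8 and 38.7 CPM in KO against 17.6, 18.1 and 20.3 CPM in WT, 2.37-fold (edgeR, adjusted p = 0.359; DESeq2, adjusted p = 0.00108). Aim2, a sensor of DNA in the cytosol, was at 11.8 and 10.1 CPM in KO against 1.34, 1.31 and 1.89 CPM in WT, 7.22-fold (edgeR, adjusted p = 0.399; DESeq2, adjusted p = 0.00108). For both genes the WT libraries lay close together, WT replicate 1 included, and the KO libraries lay well above them. Spink5, the epidermal serine protease inhibitor LEKTI, was the most abundant of the higher genes, at 1225 and 792.5 CPM in KO against 342.3, 181.6 and 299.1 CPM in WT, 3.68-fold (edgeR, adjusted p = 0.503; DESeq2, adjusted p = 0.00733).

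Pparg, a nuclear receptor of lipid metabolism, was at 30.2 and 11.1 CPM in KO against 5.55, 3.86 and 3.28 CPM in WT, 4.85-fold, with KO replicates that differed by more than any WT pair. Tgm3, a transglutaminase of the hair shaft and cornified layer, had the same layout, at 37.1 and 12.7 CPM in KO against 8.47, 3.86 and 3.69 CPM in WT. Hlf, a transcription factor of the PAR family, was at 7.81 and 6.63 CPM against 3.02, 3.06 and 1.64 CPM. Nsd1, a methyltransferase of histone H3, was at 31.1 and 27.5 CPM against 18, 14.4 and 15.2 CPM. Zfp280c, Zbtb5 and Dixdc1, 2 zinc finger genes and a Wnt pathway gene, were 2.39-, 2.43- and 2.98-fold higher. Their KO libraries lay between 5.54 and 14.6 CPM and their WT libraries between 2.25 and 5.74 CPM. Fv1, a retroviral restriction gene below the level needed for naming, was at 5.75 and 3.93 CPM in KO against 1.24, 0.58 and 0.33 CPM in WT and passed in edgeR once WT replicate 1 was left out (adjusted p = 0.0338).

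**Figure D2:**
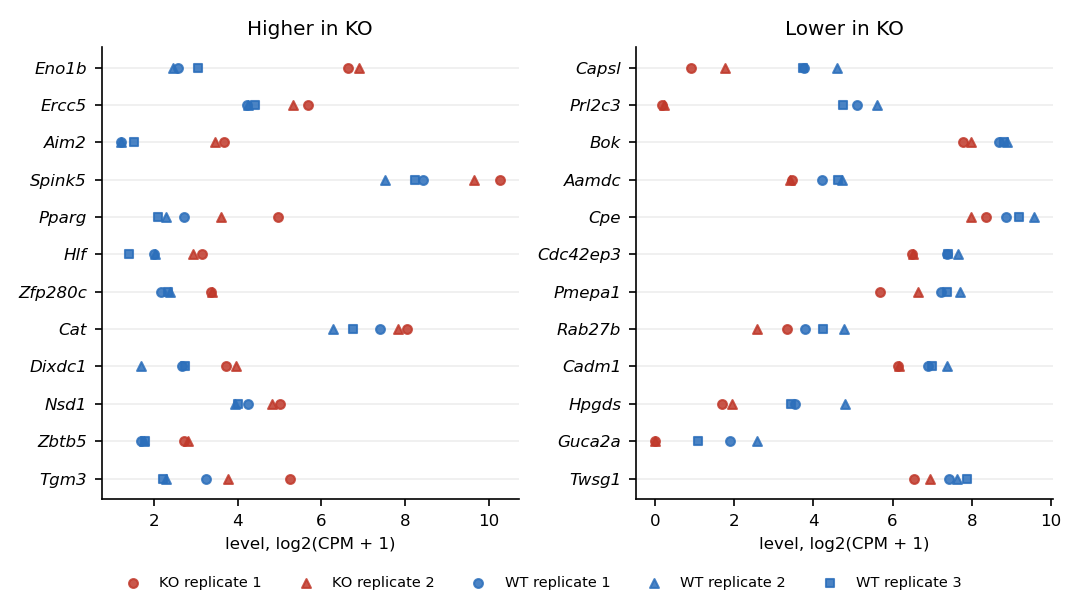
Level of the 24 named genes in each of the 5 libraries (horizontal axis, log2 of CPM + 1), higher genes on the left and lower genes on the right, with KO in red and WT in blue and 1 symbol per replicate. In each row the KO symbols lie on 1 side of all WT symbols, which the naming rule fixes. WT replicate 1 is the WT library nearest to KO for Spink5, Pparg, Cat, Nsd1 and Tgm3 on the left. On the right it is nearest for Bok, Aamdc, Cpe, Cdc42ep3, Pmepa1, Rab27b, Cadm1 and Twsg1.

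Among lower genes, Capsl, a gene of a calcium-binding protein, had the smallest p. It was at 0.88 and 2.42 CPM in KO against 12.7, 23.4 and 12.3 CPM in WT, 9.74-fold lower in KO (edgeR, log2 -3.28 ± 0.55, adjusted p = 0.17; DESeq2, adjusted p = 3.67e-07). Prl2c3, a proliferin of the prolactin family, was close to absent from KO, at 0.126 and 0.183 CPM against 33.6, 47.7 and 25.7 CPM in WT. In a fit of the compared libraries alone it passed the adjusted threshold (log2 -7.80, adjusted p = 0.00751). Its near-copy Prl2c2, which matches it at 838 of 842 transcript bases and was named after its values were seen, was at 0 in both KO libraries and at 2.63, 1.67 and 7.22 CPM in WT, and the reads of the pair cannot be fully told apart. Guca2a, the gene of guanylin, a peptide that activates an intestinal guanylate cyclase, had 0 counts in KO and 139 in WT, at 2.73, 4.95 and 1.15 CPM, which is at least 45.2-fold lower at a floor of 3 counts over the KO group.

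Hpgds, a prostaglandin D synthase, was at 2.23 and 2.88 CPM in KO against 10.6, 26.7 and 9.92 CPM in WT, 6.15-fold lower in KO. The remaining lower genes differed by 1.87- to 2.70-fold. Bok, a member of the BCL2 family that promotes cell death, was at 218.8 and 252.8 CPM in KO against 410.3, 475.8 and 447.9 CPM in WT, 1.89-fold lower in KO (edgeR, adjusted p = 0.652; DESeq2, adjusted p = 0.043). Pmepa1 and Twsg1, which dampen TGF-beta signalling and bind BMP ligands, were at 50.2 and 99.6, and at 92.6 and 121.3 CPM in KO. In WT these genes were at 148 to 205.4 CPM and at 170.7 to 232.6 CPM. Cdc42ep3 and Cadm1, a CDC42 effector and a cell adhesion gene, were each close to equal in the 2 KO libraries, at 89.1 and 91.1 CPM and at 69.2 and 70.5 CPM. Their WT levels were 164.8 to 199.6 CPM and 118.4 to 163.9 CPM. Cpe, Rab27b and Aamdc, genes of a carboxypeptidase, of a GTPase of secretion and of a protein named for adipogenesis, were 2.09-, 2.70- and 2.25-fold lower in KO. Against WT replicate 1 alone the log2 differences of Cpe and Rab27b were -0.67 and -0.84, in place of -1.06 and -1.43.

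The 28 pathway lists held 577 tested genes, of which 53 (9.19%) had an unadjusted p under 0.05 against 7.59% of all genes. None of them passed the adjusted threshold in edgeR or in DESeq2. The lists therefore describe directions and sizes, and none of their members is reported as changed.

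Genes of glutathione synthesis and antioxidant defence held higher and lower members. This system makes glutathione from imported cystine, couples it to toxic compounds and removes peroxides, and many of its genes are driven by the factor NRF2 through antioxidant response elements. Of 25 members, 7 were higher at an unadjusted p under 0.05 (28.0% against 4.4% of all genes) and 2 were lower (8.0% against 3.19%). Without overlap 9 were higher (36.0% against 14.9%) and 5 lower (20% against 13.2%). The median was 0.08, since enzymes that were higher stood beside peroxidases that were lower, and it took the other sign in 4 of 15 alternatives, among them the setting against WT replicate 1 alone (-0.05).

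Glutathione synthesis was represented by both subunits of its first enzyme. Gclc, the catalytic subunit, was at 329.8 and 213.3 CPM in KO against 126.2, 63.7 and 149.4 CPM in WT, 2.40-fold (edgeR, log2 1.26 ± 0.34, adjusted p = 0.652). Gclm, the modifier subunit, was at 872.8 and 999.8 CPM in KO against 613.7, 403 and 544.7 CPM in WT. Slc7a11, the cystine importer, was at 148 and 117.2 CPM against 72.9, 9.38 and 43.5 CPM. In all 3 genes both KO libraries exceeded every WT library. The log2 difference of Gclc was 1.11 against WT replicate 1 alone, and that of Slc7a11 was 0.87 in place of 1.66.

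Cat, the gene of catalase, which breaks down hydrogen peroxide, was at 261 and 226.2 CPM in KO against 167.7, 76.9 and 107.2 CPM in WT. Its log2 difference of 1.05 ± 0.26 (edgeR, adjusted p = 0.652) became 0.54 against WT replicate 1 alone. Hmox1, the stress-induced heme oxygenase, was at 31.1 and 46.9 CPM against 16.1, 7.35 and 11.6 CPM, and Gsta3, a glutathione transferase, was at 66.1 and 39.5 CPM against 33.8, 3.20 and 22.8 CPM. Nqo1, a quinone reductase and common NRF2 readout, was at 468.7 and 625.3 CPM against 486.5, 201.5 and 325.4 CPM, so WT replicate 1 lay within the KO range. On the lower side were the glutathione peroxidases Gpx1, at 1376 and 2257 CPM against 2333, 3379 and 2728 CPM, and Gpx4, at 108.1 and 122.6 CPM against 123, 232.3 and 236.5 CPM. In both, WT replicate 1 lay just above the KO libraries. Set against WT replicate 1 alone, the log2 differences were 0.65 for Gsta3, 0.17 for Nqo1, -0.36 for Gpx1 and -0.09 for Gpx4, in place of 1.40, 0.69, -0.63 and -0.77.

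The promoters of 2 of the higher glutathione genes are shown because each holds the core of the antioxidant response element, TGACNNNGC, on one of the strands. The sequences are RefSeq promoters on GRCm38.p6, 250 bases before to 50 after the gene start, with the motif in capitals. In Gclm (chr3:122245307-122245606, plus strand) the match lies on the reverse strand and begins 134 bases before the start, and in Gsta3 (chr1:21240335-21240634, plus strand) it lies on the forward strand, 121 bases before the start.
Gclm: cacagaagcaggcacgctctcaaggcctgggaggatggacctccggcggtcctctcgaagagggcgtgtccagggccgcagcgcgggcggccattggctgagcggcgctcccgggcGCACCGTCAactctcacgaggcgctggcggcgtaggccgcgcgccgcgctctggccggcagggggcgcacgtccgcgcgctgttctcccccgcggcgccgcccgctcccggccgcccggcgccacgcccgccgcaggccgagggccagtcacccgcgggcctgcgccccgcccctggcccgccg
Gsta3: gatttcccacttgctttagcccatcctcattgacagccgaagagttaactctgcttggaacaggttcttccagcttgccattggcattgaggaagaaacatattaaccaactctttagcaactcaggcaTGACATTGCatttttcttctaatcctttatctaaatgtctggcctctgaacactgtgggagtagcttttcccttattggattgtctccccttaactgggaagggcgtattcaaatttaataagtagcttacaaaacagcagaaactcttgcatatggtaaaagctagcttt
Of the 25 genes of the list, 20 had a promoter in the table, with 27 promoters in all, and 8 of those 27 (29.6%) held the motif on either strand, against 12.4% of all 32851 promoters. These windows of Cat, Nqo1 and Slc7a11 did not hold it, and those of Gclm, Gsta3, Txnrd1, Srxn1, Gstm5, Mgst1, Prdx1 and Sod1 did. Genes with the motif went in both directions. Gclm, Gsta3, Txnrd1 and Srxn1 were higher in KO by value (log2 0.49 to 1.40), and Gstm5, Mgst1, Prdx1 and Sod1 were lower (-0.52 to -0.37). Against WT replicate 1 alone Txnrd1 differed by 0.41, Gstm5 by 0.49, Mgst1 by -0.05, Prdx1 by -0.14 and Sod1 by -0.88. A match of these letters is a description and not a bound site.

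The pentose phosphate pathway, which supplies the NADPH that glutathione recycling and lipid synthesis use, had the highest median of the pathway lists, 0.41 over 9 members against 0.013 over all genes. Of its 3 oxidative enzymes, Pgd and G6pdx were higher and Pgls was lower by value (log2 -0.39, with overlap). Pgd was at 247.8 and 206 CPM in KO against 169.6, 89.4 and 115.4 CPM in WT (edgeR, log2 0.86 ± 0.27, adjusted p = 0.652), and G6pdx was at 545.9 and 432 CPM against 371.3, 212.1 and 324.4 CPM. Tkt and Prps2 were also higher without overlap, at 0.43 and 0.41 on the log2 scale, which makes 4 of 9 (44.4% against 14.9% of all genes). WT replicate 1 was the WT library nearest to KO in Pgd, G6pdx and Tkt. Against it alone Pgd and G6pdx differed by 0.43 and 0.40, and the median of the list was 0.29 against that library alone and between 0.08 and 0.46 over the 15 alternatives.

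Cholesterol and fatty acid synthesis, driven by the SREBP factors, leaned the same way. Of 23 members 17 were higher, against 51.0% of all genes, 10 of them without overlap (43.5% against 14.9% of all genes), and the median was 0.36. Insig1, a sterol sensor, was at 26.4 and 30.9 CPM in KO against 22.7, 11 and 15.6 CPM in WT (edgeR, adjusted p = 0.652). Srebf1, Scd2, Elovl6 and Fasn, a lipogenic factor, a desaturase, an elongase and fatty acid synthase, differed by 0.62, 0.83, 0.96 and 0.36 on the log2 scale, with no overlap in any of them. These 4 values against WT replicate 1 alone were 0.24, 0.52, 0.18 and 0.22, and that of Insig1 was 0.34 in place of 0.80. With the trend of exon length taken out of each library, described at the end, the median of the list came to 0.07.

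Glycolysis, the pathway most tied to SIRT6, did not lean higher: 7 of 21 members were higher and 14 lower. The median of -0.13 stayed below 0 in each of the 15 alternatives (-0.21 to -0.04). At an unadjusted p under 0.05, 1 was higher (4.76% against 4.4% of all genes) and 3 lower (14.3% against 3.19%). Without overlap 3 were higher (14.3% against 14.9%) and 5 lower (23.8% against 13.2%). The first enzyme, hexokinase Hk1, was higher, at 208.3 and 187.3 CPM in KO against 152.9, 132.7 and 147.9 CPM in WT (edgeR, log2 0.45 ± 0.18, adjusted p = 0.652). Its relative Hk2 was at 57.2 and 93.2 CPM against 56.6, 48.5 and 45.5 CPM, and the glucose transporter gene Slc2a1 was at 321.3 and 543.7 CPM against 378.7, 215.5 and 232.5 CPM, with overlap. Lower beside Eno1 were Pfkl, at 239.5 and 291.9 CPM against 329.2, 381.3 and 417.7 CPM, and Aldoa, at 1411 and 1076 CPM against 1608, 1555 and 2038 CPM. Ldha and Gapdh, at -0.21 and -0.17, overlapped between genotypes. With WT replicate 1 alone as control, Slc2a1 differed by 0.20, Pfkl by -0.30, Ldha by -0.59 and Gapdh by -0.43. At the pyruvate step, Mpc1 of the mitochondrial pyruvate carrier was lower (13.2 and 14.9 CPM against 21.3, 23.6 and 24.1 CPM, adjusted p = 0.652 in edgeR). The 20 hypoxia targets outside glycolysis split into 10 higher and 10 lower, with a median of 0.08. That median ran from -0.55 to 0.50 and took the other sign in 6 of 15 alternatives, among them WT replicate 1 alone (-0.42).

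Nuclear genes of the respiratory chain and ATP synthase were lower almost throughout, 24 of 25, with a median of -0.41. Without overlap 9 were lower (36.0% against 13.2% of all genes). Their median exon length, 2178 bases, fell in the shortest of the 5 length bins described at the end. In that bin 27.2% of genes were lower without overlap, and the median was -0.26. Atp5o was at 396.3 and 498.1 CPM in KO against 664.3, 727 and 811.4 CPM in WT (edgeR, log2 -0.71 ± 0.31, adjusted p = 0.652). Ndufv2 of complex I was at 255.5 and 274.8 CPM against 356.7, 393.2 and 417.2 CPM. In 16 of the 25 genes WT replicate 1 was no higher than the higher KO library, as for Cox6c, at 312.6 and 425.2 CPM against 372, 551.8 and 592.4 CPM. Against WT replicate 1 alone the median was -0.03.

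Cytosolic ribosomal protein genes were lower as a list too, 32 of 35 members, 6 of them at an unadjusted p under 0.05 (17.1% against 3.19% of all genes). Without overlap 14 were lower (40.0% against 13.2% of all genes). Their median exon length, 1830 bases, also fell in the shortest length bin, where 27.2% of genes were lower without overlap. The differences were small, with a median of -0.21. Rpl18 was at 798.3 and 611.2 CPM in KO against 1074, 915.2 and 932.9 CPM in WT (edgeR, log2 -0.47 ± 0.17, adjusted p = 0.652). The median was -0.27 against WT replicate 1 alone and -0.02 with the trend of exon length taken out. Ribosomal protein genes have many processed copies, so their levels are uncertain. Rps4l, a processed pseudogene whose transcript matches that of Rps4x at 668 of 848 aligned bases (78.8%), named after its values were seen, was at 310.9 and 513.2 CPM in KO against 12.1, 0.95 and 12.2 CPM in WT, 48.7-fold (edgeR, adjusted p = 0.234; DESeq2, adjusted p = 0.00112).

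**Figure D3:**
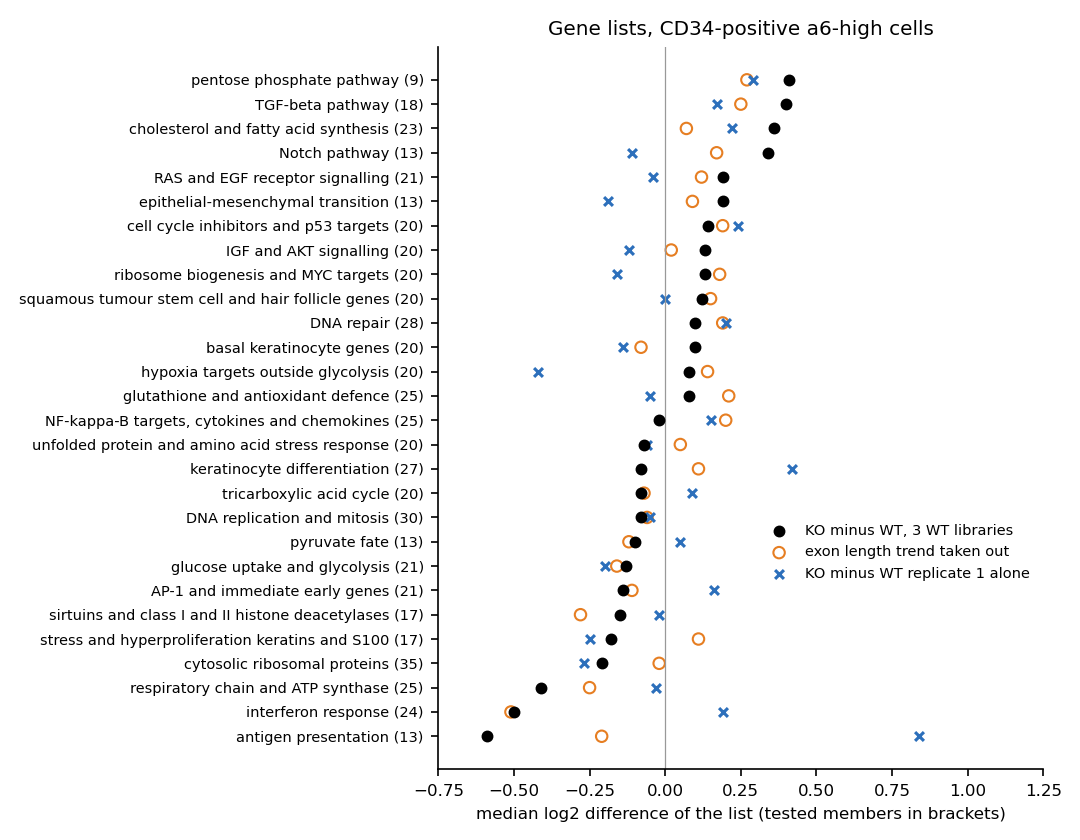
Median log2 difference between KO and WT over the tested members of each of the 28 pathway lists (member numbers in brackets), for the fit with the 3 WT libraries (black), with the exon length trend taken out (orange rings) and for KO against WT replicate 1 alone (blue crosses). Black points run from -0.59 to 0.41, and the crosses of antigen presentation (0.84) and interferon response (0.19) lie on the other side of 0.

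Of 28 DNA repair genes 4 were higher (14.3% against 4.4% of all genes) and 1 lower (3.57% against 3.19%) at an unadjusted p under 0.05. Without overlap 8 were higher (28.6% against 14.9%) and 3 lower (10.7% against 13.2%). Brca2, of homologous recombination, was at 9.32 and 7.13 CPM in KO against 4.45, 2.55 and 3.12 CPM in WT (edgeR, log2 1.28 ± 0.46, adjusted p = 0.652). Rad50, of the break-sensing MRN complex, was at 48 and 34.8 CPM against 21.4, 17 and 15.7 CPM, and Prkdc, the kinase of end joining, was at 13.9 and 12.6 CPM against 8.66, 5.46 and 3.77 CPM. Lig3 was higher by 0.58 and Parp2 lower by -0.42 on the log2 scale. The median of the list was 0.10 and stayed between 0.05 and 0.22 over the 15 alternatives. In the list of cell cycle inhibitors and p53 targets, Ccng1 was at 268.5 and 241.6 CPM against 135.7, 141.5 and 210.2 CPM, and Cdkn1b was at 11.7 and 7.59 CPM against 4.59, 1.964 and 1.804 CPM. Prkdc differed by 0.62 and Cdkn1b by 1.08 against WT replicate 1 alone, in place of 1.14 and 1.77. Replication and mitosis genes had a median of -0.08, which took the other sign in 3 of 15 alternatives (0.12 without KO replicate 2) and ran from -0.38 to 0.32. Of them 7 of 30 were lower (23.3% against 13.2%) and 2 higher (6.67% against 14.9%) without overlap, and the mitotic kinesin Cenpe was at 66.8 and 35.6 CPM against 19.6, 7.49 and 5.74 CPM, a log2 difference of 2.21 that was 1.39 against WT replicate 1 alone.

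Signalling lists differed in their share of members with a small p. At an unadjusted p under 0.05, 2 of 21 RAS and EGF receptor genes were higher (9.52% against 4.4% of all genes) and 0 lower. Of 20 IGF and AKT genes 2 were higher (10.0%) and 1 lower (5.0% against 3.19% of all genes). The Notch and NF-kappa-B lists had 0 such members, and the AP-1 list had 1 of 21, which was higher (4.76%). In the TGF-beta pathway 15 of 18 members were higher (against 51.0% of all genes), 4 of them without overlap (22.2% against 14.9%), with 0 at an unadjusted p under 0.05 and a median of 0.40. Smad4, the shared mediator, was at 67.7 and 74.5 CPM in KO against 59, 46.9 and 48.4 CPM in WT (edgeR, adjusted p = 0.652). The median took the other sign (-0.14) when the share of reads outside genes entered as a covariate. In the Notch list Notch1 was at 81.3 and 105.5 CPM against 80.9, 28.2 and 31.4 CPM, so the difference rested on WT replicates 2 and 3, and the median of 0.34 was -0.11 against WT replicate 1 alone. Among genes of RAS and EGF receptor signalling, Spry2, a feedback inhibitor, was at 10.9 and 20.2 CPM against 10.2, 4.44 and 4.26 CPM. Against WT replicate 1 alone, the log2 differences of Smad4, Notch1 and Spry2 were 0.28, 0.21 and 0.60, in place of 0.47, 0.99 and 1.29. The NF-kappa-B, AP-1 and IGF lists had medians of -0.02, -0.14 and 0.13, each of which took the other sign in 2 to 8 of the 15 alternatives.

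Keratinocyte genes did not lean in 1 direction. Of 27 differentiation genes 12 were higher and 15 lower. The cornified layer genes Cdsn and Lor were at 17.4 and 9.32 CPM and at 19.5 and 19.2 CPM in KO. In WT Cdsn lay at 0.96 to 4.07 CPM and Lor at 0.44 to 6.37 CPM, below KO for both genes. Sprr2d and Krtdap went the other way, with Krtdap at 6050 and 3517 CPM in KO against 8477, 11040 and 15180 CPM in WT. Krt1 and Krt10, the keratins of early differentiation, overlapped. With WT replicate 1 as the only control, Lor differed by 1.61 and Krtdap by -0.82, in place of 2.76 and -1.27, and Krt1 and Krt10 went from -0.51 and -0.75 to 1.11 and 1.05. Among tumour stem cell and hair follicle genes Twist1, a transcription factor of epithelial-mesenchymal transition, was at 1.68 and 5.17 CPM in KO against 14.7, 9.53 and 14.5 CPM in WT (edgeR, log2 -1.92 ± 0.62, adjusted p = 0.652), and Sox2 was at 24.4 and 10.1 CPM against 8.09, 0.65 and 2.79 CPM, with a log2 difference of 2.15 that was 1.1 against WT replicate 1 alone. The stress keratin and S100 list had 13 of 17 members lower and a median of -0.18, which was 0.11 with the exon length trend taken out, among them S100a9, at 58.1 and 18.7 CPM against 132.3, 110.6 and 105.5 CPM.

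Antigen presentation and interferon genes were on the lower side by median, a direction that rested on WT replicates 2 and 3. Tapbp, which loads peptides onto class I molecules, was at 42.9 and 52.8 CPM in KO against 74.2, 153.3 and 122.2 CPM in WT (edgeR, log2 -1.28 ± 0.46, adjusted p = 0.652). Tap2, a peptide transporter gene, was at 7.31 and 6.81 CPM against 9.33, 21.3 and 17.7 CPM. B2m, the shared light chain, was at 417.1 and 497.4 CPM against 256, 929.2 and 882 CPM, so KO lay between the WT libraries. Against WT replicate 1 alone the log2 difference of Tapbp was -0.63 and that of Tap2 -0.40, in place of -1.28 and -1.19. The median over 13 members was -0.59 with all WT libraries and 0.84 against WT replicate 1 alone, and it stayed below 0 when any 1 library was left out. For 24 interferon response genes the values were -0.50 and 0.19, and the median was also above 0 (0.17) without WT replicate 2.

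Among markers of other cells, more of the macrophage genes were detected in KO than in WT. In bulk libraries fewer cells of a type and less RNA per cell cannot be told apart. Of 14 tested macrophage and dendritic genes, 12 were higher in KO, 11 of them without overlap (78.6% against 14.9% of all genes), and the median was 2.22, or 2.21 with genes absent from WT set at their bound. Over the 15 alternatives it ran from 0.22, with at least 10 CPM in 2 libraries, to 3.33, against WT replicate 1 alone. Lyz2, the lysozyme of myeloid cells, was at 1.55 and 4.57 CPM in KO and had 0 counts in WT, at least 46.8-fold higher (edgeR, adjusted p = 0.171). The complement gene C1qb was at 1.01 and 1.83 CPM against 0, at least 21.9-fold higher (edgeR, adjusted p = 0.652). The summed level of the list was 37.4 and 45.3 CPM in KO and 25.7 to 33 CPM in WT, and of 18 matched members 0 and 1 were at 0 in KO against 8 to 11 in WT. Endothelial genes summed to 23.3 and 27 CPM in KO and 20.2 to 91.2 CPM in WT, where WT replicate 3 alone had Plvap at 39.2 CPM, and their median of -0.94 was 0.09 without that library. Langerhans genes summed to 106.1 and 85.47 CPM in KO and 134.5, 318.5 and 251.6 CPM in WT, mostly from Mfge8, which other cells also express. By member 5 of 7 were higher in KO (against 51.0% of all genes), with a median of 0.07 that took the other sign in 7 of 15 alternatives. Cd207 of this list was at 0.76 and 2.93 CPM in KO against 0, 0.22 and 0 CPM in WT. Pericyte and smooth muscle genes summed to 67.01 and 74.09 CPM in KO and 61.93 to 174.6 CPM in WT, mostly from Acta2. Of 5 tested members 4 were higher in KO, with a median of 1.22. Mcam was at 24.4 and 24.6 CPM in KO against 5.36 to 9.59 CPM in WT. Acta2 was lower, at 40.1 and 38.4 CPM against 52.7 to 162.8 CPM. Fibroblast genes summed to 89.7 and 100.6 CPM in KO and 110.5 to 145.1 CPM in WT. Most of this sum was Fbln1, at 76.6 and 79 CPM in KO against 97.1 to 137 CPM in WT. Of 8 tested fibroblast members 4 were higher and 4 lower, with a median of -0.08 that took the other sign in 4 of 15 alternatives. T and NK genes summed to at most 2.39 CPM, and 0 erythroid genes were detected well enough to be tested. The part of such cells in the levels of Aim2, Hmox1 and the class II genes, which myeloid cells also express, was not tested.

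The named genes were set beside the other sorted populations, whose libraries carry the same replicate numbers and deviate together with these, so they are not independent of them. All 12 higher genes were also higher in CD34-negative a6-high cells, 11 without overlap, and 11 were higher in a6-low cells, 8 without overlap. Of the 12 lower genes, 12 and 11 were lower there, 9 and 9 without overlap. In those populations 16.5% and 8.51% of all genes were higher and 13.7% and 6.38% lower without overlap. The named genes were chosen for groups that do not overlap here, and among all 2179 genes higher without overlap here 949 were so in a6-high cells (43.6% of these and 39.2% of the 2424 there) and 380 in a6-low cells (17.4%, and 30.5% of the 1247 there). Among the 1939 lower genes these were 846 (43.6%, and 42.1% of 2008) and 374 (19.3%, and 40.0% of 935). Over all genes, 205 were higher and 216 lower without overlap in all 3 populations. Of the 24 fitted differences, 22 were larger in CD34-positive cells than in the other a6-high cells, 24 were larger than in a6-low cells and 14 became smaller at each step, as for Ercc5 (1.24, 0.85 and 0.56), Tgm3 (2.21, 1.43 and 0.45) and Capsl (-3.28, -1.69 and -1.07), though genes named for a small p in 1 population tend to be larger there.

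Tests of the difference between populations, in a fit that did not pair same-numbered libraries, left no gene past the threshold in edgeR. At an unadjusted p under 0.05 there were 159 genes (1.09%) against CD34-negative a6-high cells and 187 (1.28%) against a6-low cells, and DESeq2 called 1 and 0. On simulated counts these tests recovered 0% of 4-fold changes, so they say little about likeness. Cat, Hpgds and Tap2 were among the genes under 0.05 unadjusted in both tests, each with an adjusted p = 1.0 in edgeR. The log2 difference of Cat was 1.05 in CD34-positive cells, 0.13 in CD34-negative a6-high cells and -0.21 in a6-low cells. For Hpgds the values were -2.62, -0.19 and 0.45. For Tap2 they were -1.19, 1.06 and 0.88, where the CD34-negative values rest on KO replicate 1. That library had 54.1 CPM in a6-high and 65.3 CPM in a6-low cells, while KO replicate 2 had 17.2 and 24.5 CPM, within the WT ranges of 13.4 to 21.1 and 21.8 to 26.1 CPM.

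**Figure D4:**
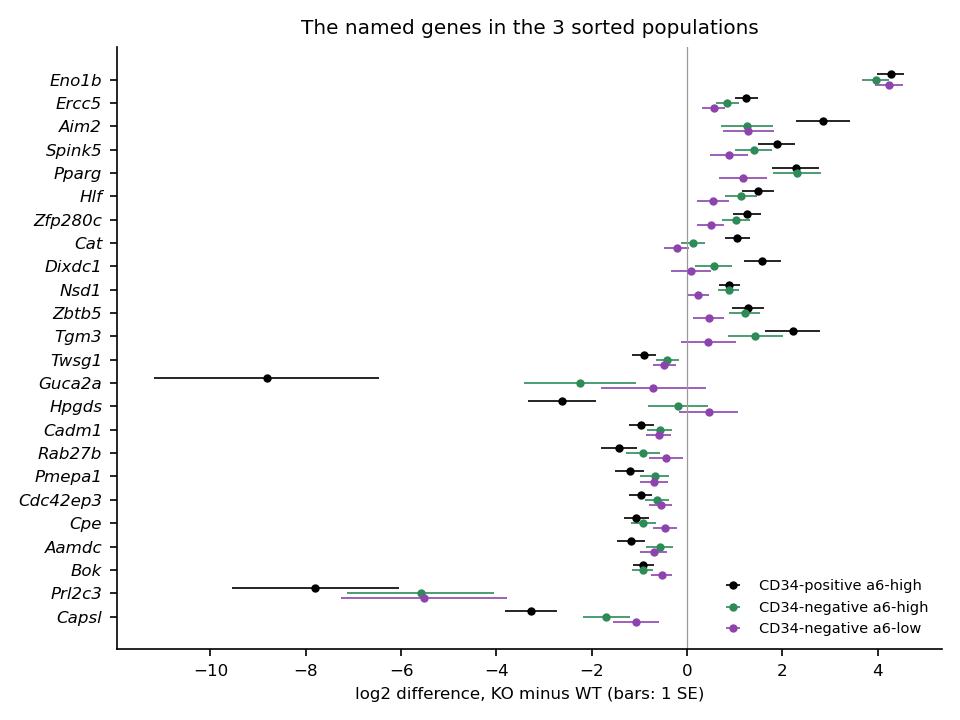
Log2 difference between KO and WT (horizontal axis, bars show 1 SE) for the 24 named genes in CD34-positive a6-high (black), CD34-negative a6-high (green) and CD34-negative a6-low cells (purple). Cat and Hpgds lie near 0 in both CD34-negative populations, while Eno1b lies between 3.96 and 4.27 in all 3, and the black value of Guca2a rests on 0 counts in KO and sets no size.

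The length of a gene's exons moved with the comparison. Of the 9782 well-expressed genes 9677 (98.9%) had an exon length, and over 5 bins of equal size the median log2 difference between KO and WT went from -0.26 in the shortest (median 1649 bases) through -0.10, 0.02 and 0.13 to 0.27 in the longest (median 9831 bases). Of the shortest genes 27.2% were lower and 4.65% higher without overlap, and of the longest 5.58% were lower and 31.1% higher. In bin 4, which held the median lengths of the cholesterol and fatty acid, DNA repair and TGF-beta lists among others, 19.3% were higher without overlap. WT replicate 1 against WT replicates 2 and 3 showed the same slope, from -0.23 to 0.24, and KO against WT replicate 1 a shallower one, from -0.09 to 0.11. With the trend taken out of each library, chosen after seeing the data, the medians moved for the lists of short or long genes: from -0.41 to -0.25 for the respiratory chain, from -0.21 to -0.02 for ribosomal proteins, from 0.36 to 0.07 for cholesterol and fatty acid synthesis and from 0.40 to 0.25 for TGF-beta. Glutathione genes went from 0.08 to 0.21, Cat from 1.05 to 1.17, Gclc from 1.26 to 1.28 and Capsl from -3.28 to -2.99, while Nsd1 went from 0.88 to 0.42, Hk1 from 0.45 to 0.23 and Krt14 from -0.58 to -0.37. The stress keratin and S100 list, whose median exon length is 1551 bases, went from -0.18 to 0.11. All 24 named genes kept their direction in this and in each other alternative in which they were tested. They were named for groups that do not overlap, so their direction was largely set by that choice, also where libraries were left out. Against WT replicate 1 alone their log2 differences were at least 0.52 times those with all WT libraries, with a median ratio of 0.83.

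**Figure D5:**
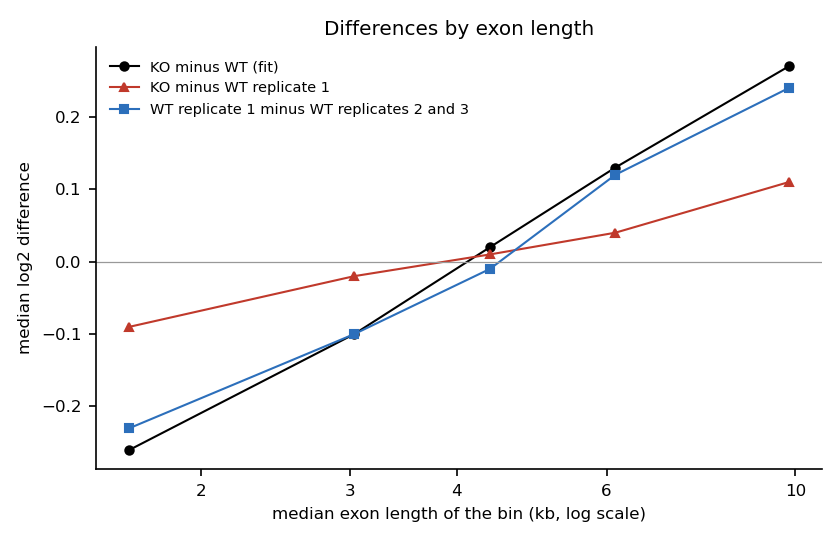
Median log2 difference (vertical axis) in 5 equal bins of well-expressed genes by exon length (horizontal axis, median length in kb, log scale), for KO against WT (black), KO against WT replicate 1 (red) and WT replicate 1 against WT replicates 2 and 3 (blue). The black and blue lines rise from -0.26 to 0.27 and from -0.23 to 0.24, and the red line from -0.09 to 0.11.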

How the data were processed

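The authors deposited raw counts of reads for each Ensembl gene, as whole numbers. Per the labels' protocols, sorted cells went into SMART-Seq v4 cDNA synthesis (10 ng cDNA, 7 PCR cycles), a kit that does not mark strand, so overlapping antisense genes cannot be told apart. The submitters' processing notes list HTSeq 0.6.0, STAR 2.3.0, Picard 1.100 and mm9 without roles, and no source names the annotation release. The tables hold 37583 genes. The 5 closing rows that name no gene were left out. In the 5 libraries, 29.86% to 32.7% of records were reads with several alignments and 2.77% to 4.63% were reads outside genes. Symbols matched for 32860 genes (87.4%) from GENCODE M21, used for names, classes, order and exon lengths only, since it belongs to another build.

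Counts were tested with edgeR 4.0.16 in R 4.3.3 (quasi-likelihood F test, TMM, filterByExpr) in a joint model of the 15 libraries, 1 coefficient for each genotype in each population, and Benjamini-Hochberg adjustment at 0.05. CPM values use TMM-scaled library sizes. Each SE was derived from the test, as the size of the log2 difference divided by the square root of its F statistic. The precision is limited by the number of libraries. How far depth also limits it, as for genes with few counts, was not tested. Named genes are Sirt6, Eno1b, Eno1, Cd34, Itga6, Krt14, genes past the threshold, the 12 higher and 12 lower genes with the smallest p among those with a logCPM of at least 2 and no overlap (no predicted genes, pseudogenes or Y-linked genes, nor Xist), and 2 members of each of 40 lists by p. Not all of the latter are printed, and other list members that are printed were picked for their role after their values were seen. The members and lists were chosen with earlier results of these data known.

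No replicate pair agreed within sampling noise (chi-square over its degrees of freedom, 35.3 to 99.4). The test was tried on simulated counts with 200 changed genes, where 2 of 45 calls were false. Same-numbered KO and WT libraries deviated together with correlations of -0.045 and 0.105 and were not taken as pairs. Those of the CD34-positive cells and of the other a6-high cells did so with correlations of 0.104 to 0.53. The reported tests between populations did not use this pairing, which entered only as the replicate block among the alternatives. The alternatives tried were edgeR with DESeq2 size factors, DESeq2 1.42.0 itself, no filter, at least 10 CPM in 2 libraries, the compared groups only, a replicate block, no libraries with Y-linked reads and each library left out. KO against WT replicate 1 alone, the share of reads outside genes as a covariate and the exon length trend taken out were added after seeing the data. Transcripts of gene copies were compared by local alignment. Some list members are not reported here.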

Additional observations from a re-analysis of the deposited data

How the results depend on the processing

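In KO against WT, 1 gene passed with all libraries. DESeq2 called 27, no filter on low counts 195, the compared groups alone 2 (Eno1b and Prl2c3), the replicate block 2 (Eno1b and Ddx3y, the latter from 1 library), the share of reads outside genes as a covariate 3 (Eno1b, Gm4735 and Cldn17) and the exon length trend taken out 2 (Eno1b and Gm4735). Leaving out each library in turn gave 1 to 2, with 2 (Eno1b and Fv1) without WT replicate 1. The tests between populations gave 0 in edgeR, also with the replicate block and without each library, 20 and 40 with no filter, and 1 (Bgn) and 0 with DESeq2. The cause of these shifts was not tested.

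Single genes changed sign under some settings. Against WT replicate 1 alone these were Itga6 (-0.31), Dusp1 (0.04), Mpc2 (0.05), Vim (0.84), Il18 (0.88) and Tslp (1.9). With the covariate they were Tgfbr1 (-0.08), Plau (-0.65), Itga6 (-0.76) and Eif2s3y (-0.88), and with the exon length trend taken out Itga6 (-0.05). Without KO replicate 2 they were Itga6 (-0.32), Cd79a (-1.03) and Eif2s3y (-2.92), without WT replicate 3 Itga6 (-0.08), and without the 3 libraries with Y-linked reads Itga6 (-0.32). Leaving out each library in turn, the values ran from -0.32 to 0.51 for Itga6, from -1.03 to 2.08 for Cd79a and from -2.92 to 13.02 for Eif2s3y.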
